A study of Mus musculus with 1536 samples.

Results

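Crh-expressing serotonin neurons are the cells of this series in which at least 1 read fell on Crh, the gene of corticotropin-releasing factor (CRF). By that rule 80 of the 999 cells in the expression table were Crh-positive, 41 of 290 cells in the Principal DR dissection and 39 of 709 in the All DR dissection, and the remaining 919 cells, with no read on Crh, served as the comparison (Crh-zero cells). With the stricter rule of at least 10 CPM (the share of a cell's reads that fall on the gene, scaled to 1000000) the number was 64, with 32 cells in each dissection. All cells came from C57BL/6J mice of the genotype Sert-tdTomato-Cre crossed with Ai14, 40 to 45 days old. Cre, made where the serotonin transporter gene is active, switches on red tdTomato for good, also in cells that used that gene only for a time during development. Single tdTomato-positive cells were sorted into wells and each was made into 1 Smart-seq2 library, a full-length cDNA method without molecular identifiers, so that reads and not molecules were counted. The 2 groups share genotype, strain, age and treatment and differ by dissection: Principal DR holds the principal dorsal raphe, and All DR is described in the study as also holding the caudal dorsal raphe and the median raphe, which its labels do not name separately. Plates are named in the labels and animals are not. The cells came from several animals, which the labels do not tie to plates or cells. A dissection was therefore treated as a single sample, differences carry no p-value, and their spread over plates is given instead. A Crh-zero cell may still hold Crh RNA that was not read at its depth.

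CRF is a neuropeptide best known from the hypothalamus, where it drives the pituitary to release ACTH in the stress response. It is cut from a larger precursor, and its C-terminus is amidated before it is stored in dense-core granules. CRF acts through the receptors Crhr1 and Crhr2, is bound by the secreted protein Crhbp, and is related to the urocortins. Serotonin neurons of the dorsal raphe carry CRF receptors and receive CRF-containing fibres, and a subset of them makes the peptide.

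The reads that chose the cells fall on a small gene, Crh, at chr3:19693401-19695396 on the minus strand of GRCm38 (mm10), which has 2 exons in GENCODE M21 and its whole coding sequence in exon 2. The stretch that encodes the mature peptide is shown because it is the part of the transcript that makes these cells CRF cells. It is 41 codons long at chr3:19693922-19694044 and is written in capitals, while the lower-case letters are the end of the precursor before the cleavage site and the codons after the peptide, including the stop codon.
Crh (Crh-201, coding strand): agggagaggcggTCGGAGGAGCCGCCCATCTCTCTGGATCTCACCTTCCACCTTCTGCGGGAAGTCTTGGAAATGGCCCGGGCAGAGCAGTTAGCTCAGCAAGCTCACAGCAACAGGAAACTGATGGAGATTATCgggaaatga
No exon of another gene on the opposite strand overlaps the 1320 exonic bases of Crh, which matters because reads were counted without regard to strand.

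The Crh level of the positive cells ranged from 1.14 to 305 CPM with a median of 32.3 CPM. Behind these values stood 1 read in 5 cells, 2 to 4 reads in 7, 5 to 9 reads in 9, 10 to 49 reads in 31 and at least 50 reads in 28. At the 10 CPM line the nearest cells below it had 9.32, 9.69 and 9.71 CPM and the nearest above it 10.7, 11.1 and 11.5 CPM, so the line runs through a continuous range and does not mark a gap. The median level of the positive cells was 29.6 CPM in Principal DR and 33.6 CPM in All DR. The levels of the positive cells thus spanned much the same range in both dissections.

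Crh-positive cells made up 14.1% of Principal DR (95% exact Clopper-Pearson interval 10.3 to 18.7) and 5.50% of All DR (3.94 to 7.44), intervals that do not overlap and cover counting error only. In Principal DR the share was 11.8% on plate 12, 18.8% on plate 13, 6.98% on plate 25, 21.4% on plate 39 and 12.2% on plate 40. In All DR plates 50 and 52 held 18.1% and 11.7%, the other 9 plates held 0 to 6.25%, and on plates 55 and 67 no cell was positive. Of the 39 positive cells of All DR, 22 lay on plates 50 and 52, and the shares of these plates lie inside the range of the Principal DR plates. Plate 63 stood apart in level: 4 of its 5 positive cells had 1.14 to 3.01 CPM and the remaining one 10.7 CPM. What the plates of All DR held of each raphe region is not given in the labels, and its part in these shares was not tested.

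**Figure D1:**
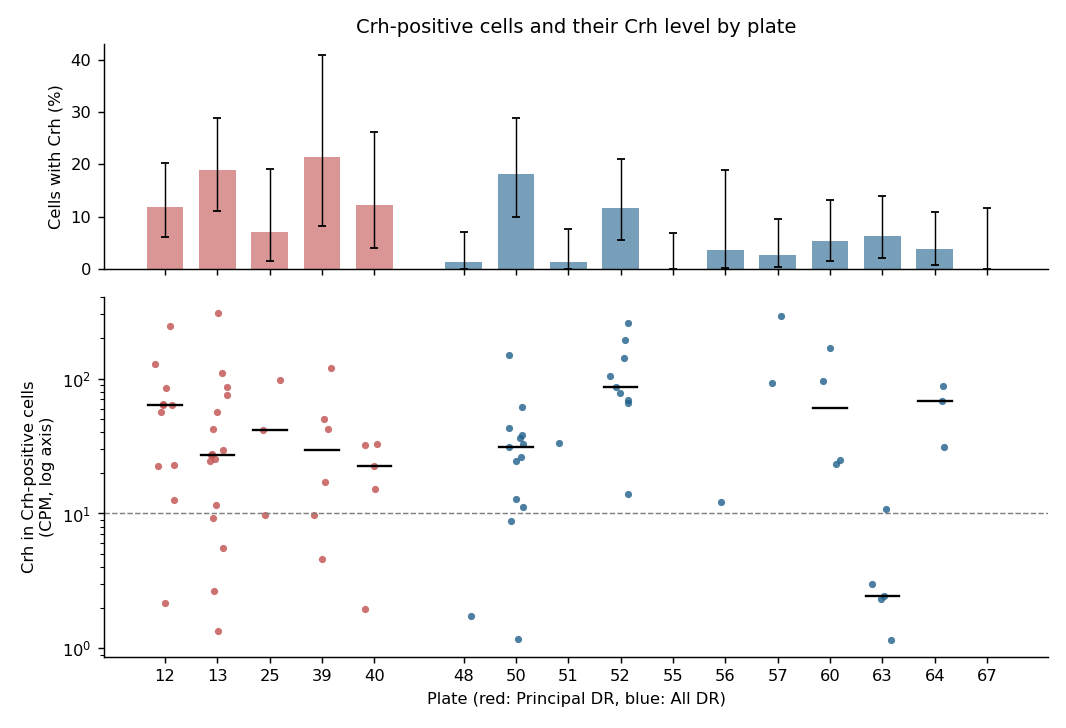
Upper panel: percent of the cells of each plate with at least 1 read of Crh, with exact 95% intervals. Lower panel: Crh level in CPM of each Crh-positive cell on a log axis, with the median as a bar where a plate has at least 3 such cells and the 10 CPM line dashed; plates 50 and 52 carry most of the positive cells of All DR (blue), and the cells of plate 63 lie lowest.

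The positive cells were serotonin neurons by every defining gene. All 80 had reads of Tph2, the enzyme that makes serotonin in neurons, of the transporters Slc6a4 and Slc18a2, and of Fev, the transcription factor that maintains serotonin identity. Mean Tph2 was 8595 CPM ± 1770 (SD over cells, n = 41) in the positive cells of Principal DR and 12560 CPM ± 3143 (n = 39) in those of All DR, against 8192 and 9601 CPM in Crh-zero cells weighted to the same plates. For each gene the difference is given below as the log2 contrast, the log2 ratio of the mean CPM plus 1 in positive cells to that in Crh-zero cells of the same plates, and a gene is called higher or lower when the contrast is past 1 on the log2 scale (2-fold) and the higher mean is at least 10 CPM. None of the 11 genes of serotonin synthesis and transport was called in either dissection, with a median contrast of 0.04 in Principal DR and -0.08 in All DR, beside -0.02 over all tested genes in each. None of the 5 identity factors tested was called either (Fev -0.12 and -0.38, Gata2 -0.51 and -0.48, Gata3 0.16 and 0.20, Lmx1b 0.08 and -0.07).

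No marker gene of another cell type was called higher in the positive cells, but few were high enough to be tested. Of 8 oligodendrocyte genes 3 were tested in Principal DR and 4 in All DR. Of 8 astrocyte genes and of 7 microglia genes 1 each was tested in each dissection. No marker of endothelium or of other neurons reached the minimum, so none of these could be called. Slc17a6 and Slc17a7, which mark other glutamate neurons, Slc6a3 and Slc6a2 of dopamine and noradrenaline neurons, Cx3cr1 and C1qa of microglia, and Cldn5, Kdr and Cdh5 of endothelium were detected in fewer than 3 cells of the whole table. The summed level of 8 oligodendrocyte genes ran from 0 to 318 CPM in positive cells of Principal DR (Crh-zero cells 0 to 3019) and from 26.3 to 561 CPM in those of All DR (0 to 79860). The median number of reads per cell was 739451 in positive and 762049 in Crh-zero cells of Principal DR, and 1102073 and 857668 in All DR. These medians are not weighted to plates, so the greater depth of positive cells in All DR includes differences between plates. Within plates it went both ways, with 1217452 against 1040641 reads on plate 50 and 476125 against 550242 on plate 64. The contrasts were also taken at an equal depth by thinning. Cells were thinned to 250000 reads and grouped anew by their thinned Crh reads, so membership changed along with depth. Cells with fewer reads were left out, 1 of Principal DR and 8 of All DR, 1 of the latter Crh-positive. Of the 23 genes called higher in both dissections 20 were called again, and of the 21 called lower in both 19.

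Across the transcriptome few genes passed the line. In Principal DR 76 of 8382 tested genes (0.907%) were called higher and 67 (0.799%) lower in Crh-positive cells, and in All DR 92 of 8314 (1.11%) were higher and 83 (0.998%) lower, Crh itself left out. The dissections share no cells. Of the genes called higher in Principal DR 30.3% were also called higher in All DR, and of those called higher in All DR 25.0% in Principal DR. For genes called lower the shares were 31.3% and 25.3%, and no gene was called in opposite directions. In all, 23 of the 7950 genes tested in both (0.289%) were higher in both dissections and 21 (0.264%) lower. Of the genes called higher in Principal DR 76.3% had a contrast above 0 in All DR, and of those called higher in All DR 92.4% in Principal DR, where 45.8% and 46.2% of all tested genes did. Of the genes called lower, 85.1% and 90.4% were below 0 in the other dissection.

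**Figure D2:**
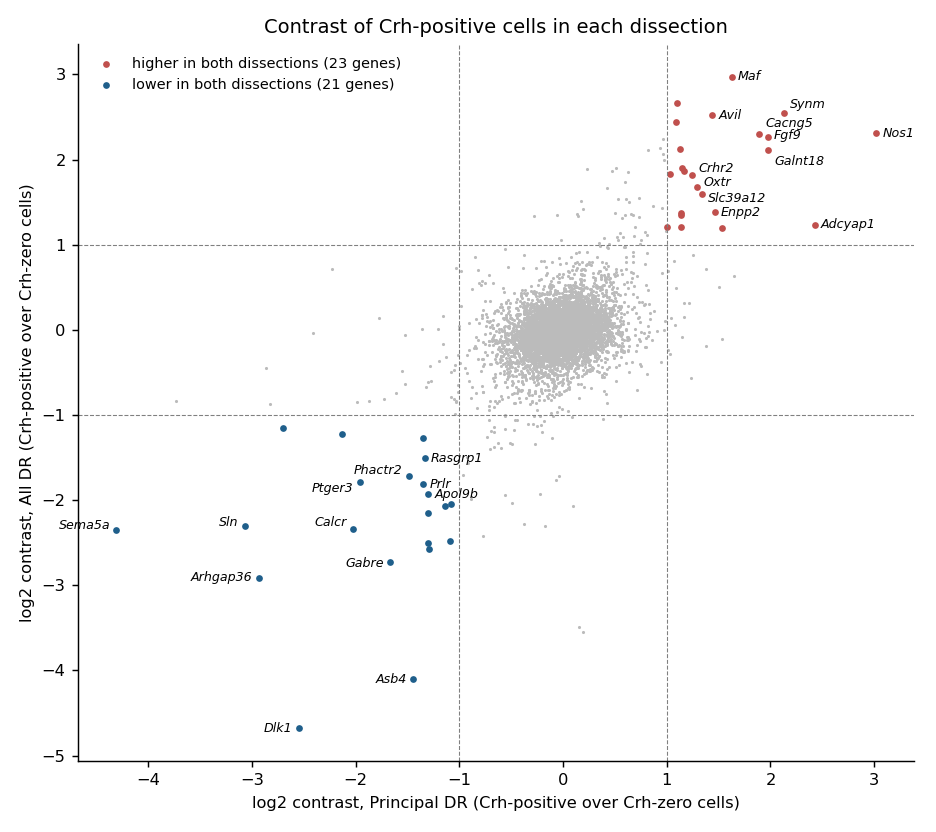
Log2 contrast of Crh-positive over Crh-zero cells for each of the 7950 genes tested in both dissections, Principal DR on the horizontal and All DR on the vertical axis, with the 2-fold lines dashed. The 23 genes higher in both are red and the 21 lower in both are blue, with 12 of each named; no gene lies past the lines in opposite corners.

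Nos1, the neuronal nitric oxide synthase (chr5:117781032-117958840), was called higher in both and led the list ordered by the smaller of a gene's contrasts. Its mean level in positive cells was 24.9, 7.06, 68.3, 52.8 and 32.8 CPM on Principal DR plates 12, 13, 25, 39 and 40, and 5.35, 0.39, 4.16, 2.18 and 1.11 CPM in the Crh-zero cells of these plates. On All DR plates 50, 52, 60, 63 and 64, the others with at least 3 positive cells, it was 41.6, 107, 89.6, 37.9 and 37.9 CPM, against 14.5, 10.7, 13.7, 11.5 and 14.0 CPM. The mean of positive cells was higher on every plate, and the plate means did not overlap. The lowest mean of positive cells in Principal DR, on plate 13, was still close to the highest of Crh-zero cells, on plate 12. On plate 63 the mean rests on 1 positive cell, the one with 10.7 CPM of Crh. The share of cells with a read was higher on 5 of 5 Principal DR plates and 4 of 5 All DR plates. The contrast was 3.02 in Principal DR and 2.31 in All DR. Nos1 was nevertheless not in all positive cells: 12 of 41 (29.3%, interval 16.1 to 45.5) and 24 of 39 (61.5%, 44.6 to 76.6) had a read, against 10.1% and 20.7% of Crh-zero cells weighted to the same plates.

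Galnt18, an enzyme that starts O-linked sugar chains, had much the same contrast on every plate. Its mean in positive cells was 25.1, 26.1, 27.6, 48.5 and 17.0 CPM on the Principal DR plates in the same order and 5.67, 3.65, 8.64, 15.9 and 4.11 CPM in Crh-zero cells. In All DR it was 85.6, 77.6, 104, 32.5 and 57.6 CPM against 19.6, 18.6, 19.7, 11.5 and 15.0 CPM. The positive cells were above the Crh-zero cells on each of the 10 plates, with no overlap between the plate means in either dissection, and the contrast of a plate lay between 1.43 and 2.54.

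Among receptors, Crhr2, which binds urocortins and, more weakly, CRF itself, was higher in both dissections. In positive cells it averaged 67.1, 33.1, 42.4, 41.3 and 30.7 CPM on the Principal DR plates, against 25.7, 17.2, 29.4, 3.08 and 13.9 CPM in Crh-zero cells, and 67.0, 90.9, 153, 81.9 and 50.1 CPM on the All DR plates, against 19.4, 28.4, 22.2, 26.2 and 21.2 CPM. The contrasts were 1.24 and 1.81, and the plate means of positive and Crh-zero cells did not overlap. Reads of Crhr2 were found in 28 of 41 and 30 of 39 positive cells (68.3% and 76.9%), against 32.0% and 40.1% of Crh-zero cells. Nos1 and Crhr2 together were found in 29.3% and 53.8% of positive cells and in 5.71% and 9.98% of Crh-zero cells. Crhr1 had no read in any of the 80 positive cells, and 0 of 41 and 0 of 39 cells leave limits of 7.32% and 7.69%. It was rare in Crh-zero cells too, with reads in 1.13% and 0.90%, so its absence does not set the positive cells apart.

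The rest of the CRF system was sparse. Ucn and Ucn3, the genes of urocortin and urocortin 3, were detected in fewer than 3 cells of the table, and Ucn2 reached a mean of 0.62 and 0.84 CPM in positive cells. Crhbp was called higher in Principal DR (23.0 against 9.56 CPM, contrast 1.19) and had a contrast of -0.64 in All DR. The Principal DR value rests on 1 plate: its positive cells had 94.6 CPM on plate 40 and 2.93 to 19.8 CPM on the other 4 plates, where Crh-zero cells had 8.24 to 10.6 CPM.

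The oxytocin receptor gene Oxtr was higher in both dissections as well, at 17.2 against 6.45 CPM and 44.1 against 13.1 CPM (contrasts 1.29 and 1.68). Its Principal DR contrast was 0.96 without plate 39, and its All DR contrast 0.99 when the Crh-zero cells were not weighted to plates. Of the peptide receptor genes, 31 in all, 6 were high enough to be tested in Principal DR and 1, Oxtr, was called higher. In All DR 7 were tested, of which 2 were called higher (Oxtr and the orexin receptor Hcrtr2, contrast 1.46) and 2 lower (the other orexin receptor, Hcrtr1, contrast -1.01, and Pth2r, -3.44). The median contrast of the tested peptide receptors was -0.24 and -0.36. Hcrtr1 was at 187 against 227 CPM in Principal DR, where its contrast was -0.28, and Hcrtr2 at 47.9 against 25.7 CPM, a contrast of 0.87.

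Genes of intercellular signals were among those higher in both. Adcyap1, the gene of the neuropeptide PACAP, was at 31.7 against 5.08 CPM in Principal DR (contrast 2.43) and 69.5 against 28.9 CPM in All DR (1.24), although 1 of 5 plates in Principal DR was below its Crh-zero cells and the All DR contrast was 0.63 without plate 52. Fgf9, a fibroblast growth factor, was higher on all 10 plates (contrasts 1.97 and 2.26), and Enpp2, the enzyme autotaxin that makes the lipid signal lysophosphatidic acid, had reads in 92.7% and 92.3% of positive cells (contrasts 1.46 and 1.38). Galanin's gene Gal differed by dissection: its contrast was 1.34 in All DR, with all 5 plates higher, and -0.28 in Principal DR, with 1 of 5 plates higher. Whether the dissections differ in this was not tested.

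Synapse and membrane genes followed. Cacng5, an auxiliary subunit of AMPA-type glutamate receptors, was higher on all 10 plates (65.3 against 16.8 CPM and 125 against 24.5 CPM, contrasts 1.89 and 2.30). Its detection was alike in positive and Crh-zero cells of Principal DR (43.9% and 49.5%), so the mean level, not the share of cells with a read, was higher there. Slc17a8, the vesicular glutamate transporter VGLUT3, was found in 43.9% against 43.6% of cells in Principal DR, at 139 against 68.8 CPM (contrast 1.00), and in 84.6% against 73.2% in All DR, at 211 against 90.7 CPM (1.21). Nxph1, a ligand of neurexins, Gabrg3, a GABA-A receptor subunit, Ramp3, a partner of calcitonin-family receptors, and Cdh6, a cadherin, were also higher in both, with contrasts of 1.03 to 1.15 in Principal DR and 1.37 to 2.66 in All DR. The cytoskeletal genes Synm (contrasts 2.13 and 2.55) and Avil (1.44 and 2.52), the zinc transporter Slc39a12 (12.7 against 4.41 CPM and 23.4 against 7.06 CPM) and the transcription factor Maf (1.63 and 2.97) complete the 12 genes with the largest contrasts that held in both. Golm1, also higher in both, shares 29.3% of its exonic bases with the opposite-strand gene Naa35, so its value is uncertain.

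Among the genes lower in both dissections, Arhgap36, an X-linked regulator of protein kinase A and hedgehog signalling, was at 17.0, 55.7, 0, 6.83 and 3.71 CPM in positive cells of the Principal DR plates and at 92.1, 330, 174, 176 and 217 CPM in the Crh-zero cells. In All DR the values were 84.1, 5.33, 0, 9.66 and 0.69 CPM against 280, 256, 241, 182 and 219 CPM. The plate means did not overlap, and the contrasts of the plates lay between -7.92 and -1.72, where those of plates with no read depend on the pseudocount. Of the 39 positive cells of All DR 9 had a read of Arhgap36 (23.1%), against 67.3% of Crh-zero cells, and one of them reached 1032 CPM.

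Dlk1, a membrane protein of the Delta family, was lower on all 10 plates too, at 25.1 against 151 CPM in Principal DR (contrast -2.55) and 1.75 against 69.4 CPM in All DR (-4.68). The axon guidance gene Sema5a was at 1.16 against 41.6 CPM and 5.87 against 33.9 CPM (-4.31 and -2.35), and Sln, the calcium pump inhibitor sarcolipin, at 1.37 against 18.9 CPM and 5.58 against 31.6 CPM (-3.07 and -2.31). Hormone and prostaglandin receptors formed part of this list: Calcr, the calcitonin receptor (-2.02 and -2.34), Prlr, the prolactin receptor (-1.35 and -1.81), and Ptger3, a prostaglandin E receptor (-1.96 and -1.78). Prlr was lower on all 10 plates, while Calcr was higher on plate 64 and Ptger3 on 1 plate of each dissection. The GABA-A receptor subunits Gabre (-1.67 and -2.72) and Gabrq (-1.30 and -2.50) were lower in both, opposite to Gabrg3. The subunits were not examined as a list, so these values describe single genes and not the family. The remaining genes of the 12 with the largest negative contrasts were Phactr2, Asb4, Rasgrp1, which activates Ras, and Apol9b, lower on every one of the 10 plates.

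**Figure D3:**
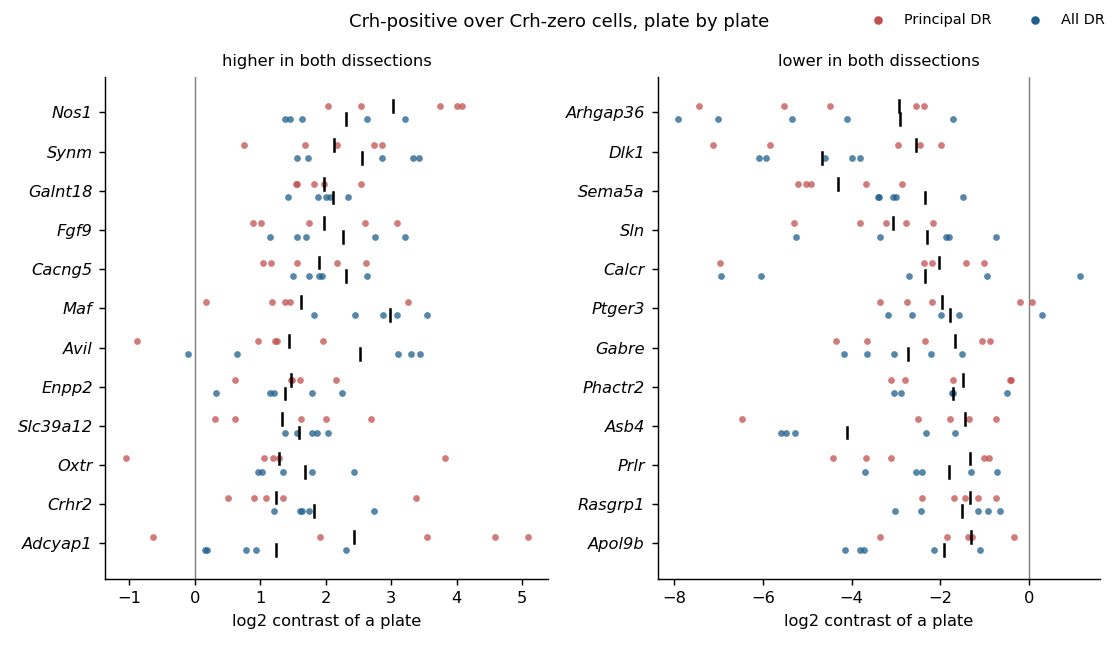
Log2 contrast of Crh-positive over Crh-zero cells on each plate with at least 3 positive cells, 5 plates in each dissection (points), and the contrast of the whole dissection (black bars), for the 12 genes with the largest contrasts of each sign that held in both. Most points are positive in the left panel and negative in the right one, the exceptions being single plates for Avil, Oxtr, Adcyap1, Calcr and Ptger3.

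Some genes were called in 1 dissection and had a contrast under 0.5 in size in the other. In Principal DR the higher ones rested on single cells: Zfp51 (2.72), Foxn2 (2.14), Trim15 (1.98) and Rras2 (1.53) were at 0.35, 0.10, 0.39 and 0.58 without the highest cell of each set, and Foxn2 was at -0.22 without plate 40. The lower ones were Ifi27 (-2.87), Tpbg (-2.41), Calb2, the calcium buffer calretinin (-1.77), and Nell1 (-1.56), the last at -0.58 without plate 13 and -3.15 without plate 12. In All DR, Wif1, a secreted Wnt inhibitor, was at 14.7 against 0.14 CPM (3.79) and had no read in any cell of Principal DR, and Pkd2l1 was at 20.9 against 0.91 CPM (3.52), with a mean under 10 CPM without its highest cell. Lower in All DR alone were the Wnt and BMP inhibitor Sostdc1 (-3.55), Gad1 (-3.49), Hs3st4 (-2.30), Tmem176b (-2.28), Cpne4 (-2.07) and Prkcq (-2.04). Gad1 is rare in All DR, with reads in 1 of the 39 positive cells and 4.26% of Crh-zero cells. The difference between the dissections was not tested for any of these genes.

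The transmitter genes placed the positive cells of the dissections in different company. In Principal DR 31 of 41 had reads of Gad1 or Gad2, which make GABA (75.6%, interval 59.7 to 87.6; Crh-zero cells 61.3%), and 18 had Slc17a8. In All DR 9 of 39 had Gad1 or Gad2 (23.1%, 11.1 to 39.3; Crh-zero cells 22.1%) and 33 had Slc17a8. Slc17a8 without either Gad gene was found in 10 of 41 and 27 of 39 positive cells, and either Gad gene without Slc17a8 in 23 of 41 and 3 of 39. The intervals of the shares with Slc17a8 and with either Gad gene hold the share of the Crh-zero cells in each dissection. No positive cell of Principal DR and 3 of All DR lacked all of these genes, against 10.3% and 17.4% of Crh-zero cells. Of the 5 glutamate and GABA genes tested, Slc17a8 was the one called higher in each dissection. Slc32a1, the vesicular GABA transporter, was at 0.14 CPM in positive cells of Principal DR and 0 in All DR.

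Other neuropeptides were common in the positive cells. Of 5 neuropeptide genes high enough to be tested, Adcyap1 was called higher and Sst lower in each dissection, and in All DR Gal was also called higher and Trh lower. The calls of Sst and Trh rest on few cells. Sst had reads in 7.32% of positive and 8.88% of Crh-zero cells of Principal DR and in 2.56% and 3.30% in All DR, and at 10 CPM of Crh or more its Principal DR contrast was -0.78 and no longer called. Trh in All DR was lower in mean (1.44 against 12.1 CPM) but higher on 3 of 5 plates. Of 7 peptide genes (Trh, Sst, Pdyn, Penk, Gal, Npb and Adcyap1) the positive cells had a median of 2 in each dissection and the Crh-zero cells 1, and only 3 of 41 and 0 of 39 positive cells had none, against 22.7% and 20.9% of Crh-zero cells. Pdyn, the dynorphin precursor, was found in 30 of 41 (73.2%, 57.1 to 85.8; Crh-zero cells 40.4%) and 22 of 39 (56.4%, 39.6 to 72.2; 31.0%). Penk, the enkephalin precursor, was found in 7 of 41 (17.1% against 2.99%) and 5 of 39 (12.8% against 4.15%), at means of 6.21 and 1.85 CPM. Trh, the gene of thyrotropin-releasing hormone, was found in 11 of 41 (26.8% against 35.7%) and 4 of 39 (10.3% against 5.19%). All 11 Trh-positive cells of Principal DR also had Gad1 or Gad2, and 1 of them had Nos1. The median Crh level was 12.6 CPM in those 11 cells and 32.4 CPM in the 30 without Trh.

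**Figure D4:**
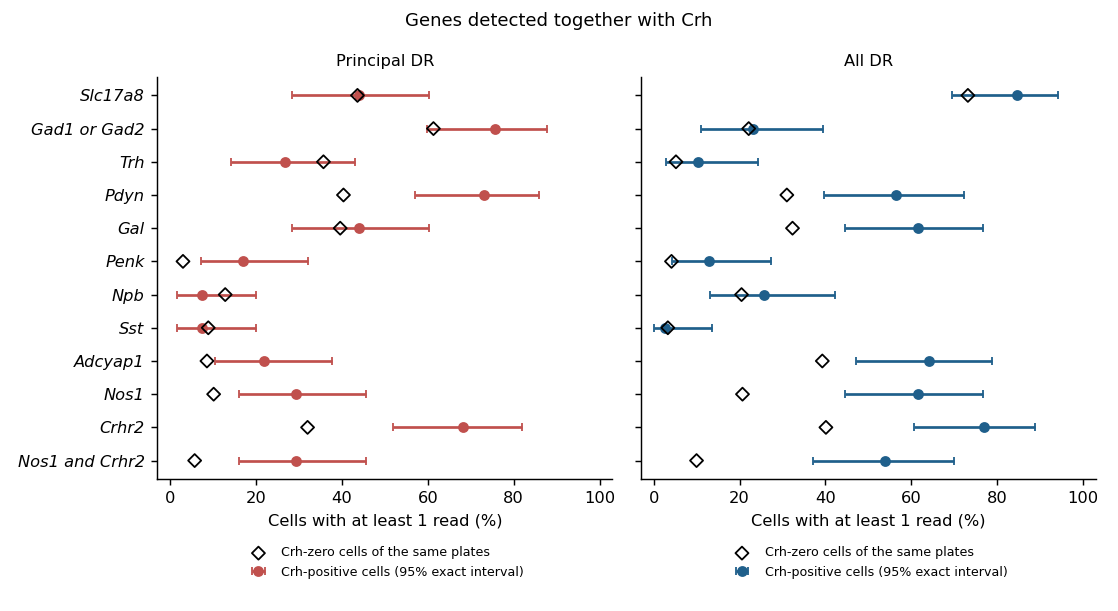
Percent of Crh-positive cells with at least 1 read of each gene or gene pair (filled circles, exact 95% intervals; 41 cells of Principal DR, 39 of All DR) and of Crh-zero cells weighted to the same plates (open diamonds). Pdyn, Nos1 and Crhr2 lie to the right of the diamonds in both panels, and Slc17a8, Gad1 or Gad2 and Trh lie near them in at least one.

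Peptide processing genes were abundant in positive and Crh-zero cells alike. All 80 positive cells had reads of Scg2, a granule protein, and of the processing enzymes Cpe and Pam, as had nearly all Crh-zero cells, and mean Scg2 was 5158 and 6419 CPM against 4395 and 4562 CPM in Crh-zero cells. Of 14 tested genes for processing and granules, Pcsk2, a convertase that cuts precursors, was called lower in Principal DR (39.3 against 81.4 CPM, -1.03) and had a contrast of -0.85 in All DR, with all 10 plates lower. Pcsk1, the other convertase, was called higher in All DR (388 against 176 CPM, 1.13) and had a contrast of 0.54 in Principal DR, with all 10 plates higher. Pam, the enzyme that amidates peptides, was at 986 against 641 CPM in Principal DR and 178 against 193 CPM in All DR.

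Factors linked to the Crh gene differed little. Of the 6 tested in each dissection none was called in Principal DR, and Nr4a1, an immediate-early nuclear receptor, was called higher in All DR (40.2 against 13.3 CPM, 1.53). The glucocorticoid receptor gene Nr3c1 had contrasts of -0.23 and -0.78, and Crem, Creb1 and Crtc1 lay between -0.13 and 0.62. Of the immediate-early genes 6 were tested in Principal DR and 8 in All DR, Nr4a1 in All DR was the one called, and Fos had contrasts of 0.16 and 0.36. Of the steroid receptors, 7 tested in Principal DR and 6 in All DR, Esr1, an oestrogen receptor, was called higher in All DR (28.8 against 5.77 CPM, 2.14), with a contrast of 0.93 in Principal DR.

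Of the 4 serotonin receptors tested Htr1d was called lower in All DR (12.2 against 49.4 CPM, -1.93; -0.55 in Principal DR), while the autoreceptor Htr1a stood at -0.10 and -0.03. None of the 3 dopamine and adrenergic receptor genes tested was called. Of the 6 NFI and Bcl11 factors 1 was tested in Principal DR (Bcl11a) and 2 in All DR (Nfic and Bcl11b), and none of these was called. Nfia, Nfib and Nfix were under the minimum in both dissections and could not be called. The study ties Crh to a cluster it names DR-3, and the genes it lists with it were chosen on these cells, so their counts are not independent evidence: Slc17a8 was called higher in both dissections, and Trh and Gad1, each with reads in few cells there, lower in All DR. Aff2 (0.18 and 0.79) and, in Principal DR, Bcl11a (-0.31) were tested and not called. Drd2 in both dissections, at 9.86 and 9.47 CPM in positive cells, and Bcl11a in All DR, at 2.69 CPM, were under the minimum and could not be called. Nfib had no read in any of the 80 positive cells (up to 7.32% and 7.69%), against 9.91% and 1.35% of Crh-zero cells. Of the study's genes for positions within the dorsal raphe, Cdh6 was called higher and Dlk1 lower in each dissection, Npas1 lower in Principal DR (0.02 against 12.5 CPM) and C1ql2 higher in All DR (14.0 against 0.09 CPM). Of its genes for the median and caudal raphe, 7 were tested in All DR. Calcr and Chrna4 (13.0 against 36.7 CPM) were called lower there and Piezo2 (1.07, 2 of 5 plates higher) and Rxfp1 (1.06, 3 of 5) higher, while Tacr3, at 0.30 against 8.72 CPM, was under the minimum. Calcr does not separate these regions here, as it had reads in 59.5% of Crh-zero cells of Principal DR (104 CPM) and 30.1% of those of All DR (71.8 CPM).

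Some genes were under the 10 CPM minimum in at least one dissection and were found more often in Crh-positive than in Crh-zero cells. Those given are picked examples from the gene lists, and such genes were not counted. Others were found less often. In Principal DR Oprm1 had reads in no positive cell against 11.3% of Crh-zero cells, and Pth2r in 2.44% against 11.6%. Prokr1, a prokineticin receptor, had reads in 5 cells of Principal DR, 4 of them Crh-positive (80.0%, 28.4 to 99.5), and in 13 cells of All DR, 11 of them Crh-positive (84.6%, 54.6 to 98.1). C1ql2, a secreted synapse organizer, was at 10 CPM or more in 13 cells of Principal DR and 15 of All DR, of which 6 and 13 were Crh-positive. Vipr2, a receptor of VIP and PACAP, had reads in 22 cells of Principal DR and 28 of All DR, of which 9 and 6 were Crh-positive, so most cells with Vipr2 were Crh-zero. In the other direction, of the 144 All DR cells with Nos1 at 10 CPM or more 21 were Crh-positive (14.6%), and of the 22 in Principal DR 11 were (50.0%).

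The genes whose level was most like that of Crh over all 999 cells, among those with a mean over 10 CPM, were Pgm2l1, with a Pearson correlation of 0.29 on ln(CPM+1), Nos1 (0.28), Rgs2, Unc5d, Nhsl1, Syt4, Pbx3, the receptor tyrosine kinase Kit, Galnt18 and Enpp2 (0.25). These are correlations over cells that share plates and depth and are given as a description. Pgm2l1 and Syt4 had reads in all positive cells and contrasts of 0.68 and 0.87 and of 0.61 and 0.56, so they differed in level and not in detection. Syt4 shares 14.5% of its exonic bases with a gene on the opposite strand. Rgs2 (0.97 and 2.00), Nhsl1 (0.97 and 2.24) and Kit (0.96 and 2.06) were called in All DR and lay just under the line in Principal DR.

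The lists were also read at each level of Crh. Since 64 of the 80 cells that defined them had at least 10 CPM, smaller contrasts in the remaining cells are partly built in, and the values are a description. In the 64 cells with at least 10 CPM the 23 genes higher in both were all above 0, with a median contrast of 1.51 in Principal DR and 2.13 in All DR. In the 9 cells of Principal DR under 10 CPM 8 of the 23 were above 0, with a median of -0.37, and in the 7 of All DR 14 of 23, with a median of 0.35. Nos1 had reads in 0 of these 9 and 1 of these 7 cells. Galnt18 (1.27 and 1.56) and Enpp2 (1.25 and 1.18) were still past 1 in the cells with little Crh. The 21 genes lower in both were below 0 at either level of Crh in both dissections. The cells with less Crh number too few for plate values.

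Within the positive cells the Crh level also went with Nos1. It had a median of 90.9 CPM in the 12 cells of Principal DR with Nos1 reads and 25.2 CPM in the 29 without, and 49.7 and 31.0 CPM in the 24 and 15 of All DR. The median depth with and without Nos1 was 817000 and 695700 reads in Principal DR and 1191000 and 1065000 in All DR, so cells with Nos1 were also the deeper ones, and the part of depth in this was not tested. Of the 23 genes higher in both, a positive cell had reads of 11 (median) in Principal DR and 18 in All DR, and a Crh-zero cell of 7 and 8. These genes were chosen as higher in the same positive cells, so a larger number is built in and is a description only.

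**Figure D5:**
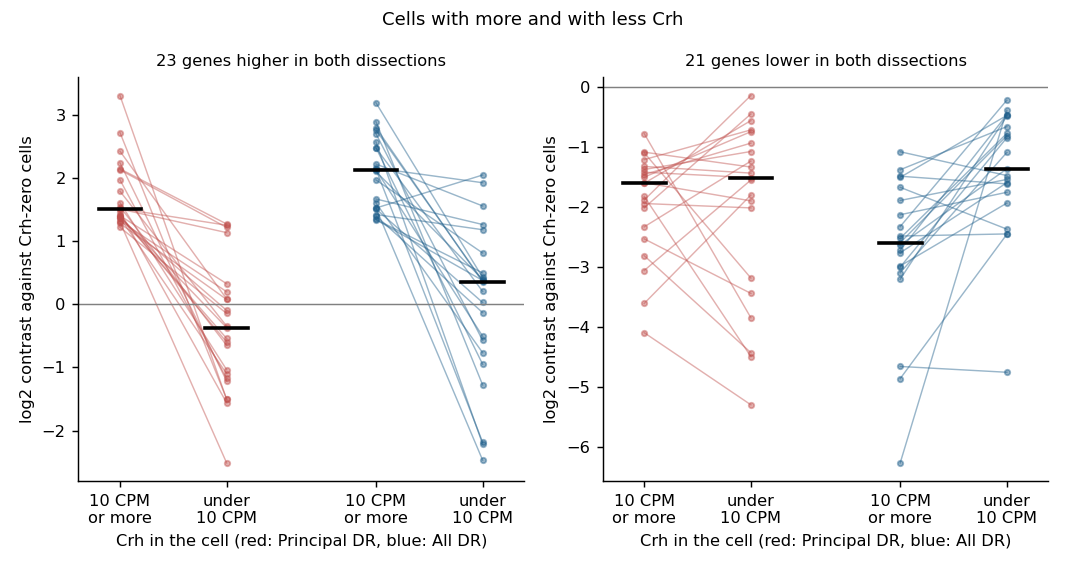
Log2 contrast against Crh-zero cells of each of the 23 genes higher (left) and 21 lower (right) in both dissections, in Crh-positive cells with at least 10 CPM of Crh (32 cells in each dissection) and with less (9 and 7 cells); lines join the values of a gene and black bars are medians. The medians of the left panel are lower in cells with less Crh, though Oxtr in All DR is higher there (2.05 against 1.52), while those in the right panel are all negative at either level.

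The share of Crh-positive cells among the nearest cells in overall expression varied over the plates. Among the 15 cells of the same plate nearest to a Crh-positive cell in 20 principal components computed without Crh, 22.6% were Crh-positive in Principal DR and 16.2% in All DR, while among the other cells of the plate 14.2% and 9.41% were. Around Crh-zero cells the share was 12.5% and 3.80%, where the other cells of their plates had 14.1% and 5.27%. By plate the share was 4.44 to 30.8% in Principal DR and 4.44 to 26.2% in All DR, with SDs over plates of 9.81 and 9.69 percentage points. The share of positive cells among the other cells of a plate itself ran from 4.76 to 18.5% and from 2.63 to 16.9%. These SDs therefore do not measure the spread of the excess over the other cells. On plate 25 the share of positive neighbours was below that of the plate's other cells (4.44% against 4.76%), and on plates 39 (20.0% against 18.5%) and 63 (5.33% against 5.06%) close to it. The size of a plate limits this value. Plate 39 held 28 cells, so 15 neighbours take in most of its other cells. Plates 25 and 64 held 3 positive cells each, so few neighbours could be positive there. The highest share around any positive cell was 53.3%. Cells with at least 10 CPM had 24.0% and 18.8% positive neighbours, against 14.0% and 9.78% of the other cells, and those with less 17.8% and 4.76%, against 14.9% and 7.72%, so that in All DR the cells with little Crh had fewer positive neighbours than their plates held.

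In the promoter windows that RefSeq gives for GRCm38.p6, from 250 bases before to 50 after a gene's start, 19 of the 23 genes higher in both and 16 of the 21 lower in both were matched, while Crh had no entry. Of 4 motifs searched on both strands, the GATA motif AGATAA was found in 4 of the 19 (Avil, Fgf9, Mlip and Slc39a12), in 1 of the 16 and in 6.85% of the 6248 matched genes tested in both. The cAMP response element TGACGTCA was in 0 of the 19, 1 of the 16 and 4.15% of all, AAAGGTCA, the NBRE of the Nr4a factors, in 0, 0 and 0.912%, and the ETS motif CCGGAAGT in 1, 0 and 10.4%. A match of letters is not a binding site. The windows of Fgf9 (chr14:58072436-58072735, plus strand) and Avil (chr10:127000459-127000758, plus strand) are shown because they hold the motif, in capitals, as TTATCT (its other strand) at 224 and as AGATAA at 102 bases before the start of the window's gene in RefSeq. For Fgf9 that start lies inside the gene as given by GENCODE M21, where it begins at chr14:58070547.
Fgf9: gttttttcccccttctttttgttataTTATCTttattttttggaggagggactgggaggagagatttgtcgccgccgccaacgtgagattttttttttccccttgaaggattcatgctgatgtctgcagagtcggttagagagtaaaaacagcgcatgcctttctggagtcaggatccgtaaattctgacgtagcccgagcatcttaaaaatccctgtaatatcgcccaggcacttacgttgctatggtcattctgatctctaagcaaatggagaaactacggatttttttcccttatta
Avil: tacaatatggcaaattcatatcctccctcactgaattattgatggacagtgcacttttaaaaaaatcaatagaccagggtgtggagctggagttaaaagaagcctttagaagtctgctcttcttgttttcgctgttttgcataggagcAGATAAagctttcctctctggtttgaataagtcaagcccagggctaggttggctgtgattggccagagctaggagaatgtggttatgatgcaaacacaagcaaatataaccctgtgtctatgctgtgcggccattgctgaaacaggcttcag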

How the data were processed

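Libraries of single tdTomato-positive cells were made with Smart-seq2. Per the study's methods and processing notes, the authors converted reads with bcl2fastq 2.19.0.316, aligned them to mm10 with STAR 2.6.1a, counted them on genes with HTSeq 0.11.2 (unstranded), dropped Y chromosome genes, kept cells with at least 300 genes and 50000 reads, and deposited CPM (reads of a gene relative to all reads of its cell) for 53263 genes. Of 1536 labelled cells the table holds 999, and the other 537 were not analysed here. Divided by the value of 1 read in its cell, 100.0% of values came out whole (within 0.001), so read counts were recovered from the deposited CPM. They were used for depth and thinning, and no count test was run: the study used several animals for each dissection, but the labels do not tie cells to them, so each dissection is 1 sample. Cells had 96834 reads or more, and none was left out except in the thinned setting. Cells were sorted singly, and no doublet caller was run. No pair of cells had identical values.

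The 25522 genes with reads in at least 3 cells were used. The contrast was log2 of mean CPM plus a pseudocount of 1 CPM in Crh-positive cells over that in Crh-zero cells, whose plates were weighted as those of the positive cells. It understates the change of low genes. Shares carry exact 95% Clopper-Pearson intervals, and a share of 0 is given its limit of 3 cells. The genes named are those of the gene lists, the 12 highest and 12 lowest called in both dissections, 8 called in 1 dissection alone by size with under 0.5 in the other, and the 10 most correlated with Crh; predicted genes were counted and not named (1 of the 23 higher in both). The members, lists and rules were chosen with earlier results of these data known. Nxph1, Gabrg3, Ramp3, Golm1, Mlip and Gabrq, outside this rule, were chosen after their values were seen, as were the 4 promoter motifs. Nearest cells were found in 20 components of ln(CPM+1). The steps were tested on simulated data. Some genes are not reported here. Coordinates and the Crh transcript are from GENCODE M21 (GRCm38), and promoter windows from RefSeq. Python 3.11.15, NumPy 2.4.6, SciPy 1.17.1, pandas 2.3.3 and matplotlib 3.10.9 were used. Alternatives were other rules for Crh (5 reads, 10 CPM), thinning to 250000 reads, other pseudocounts (0.1 and 10 CPM) and minimum means (none, 50 CPM), unweighted Crh-zero cells, pooled reads, mean log values, each gene without its highest cell, other neighbour settings, and each plate left out.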

Additional observations from a re-analysis of the deposited data

Results flagged for a closer look

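Of 97 sets of plate values looked at, 6 had a plate set apart from the others by more than the critical value of Dixon's test, and chance flags about 1 in 20 sets. In Principal DR the contrast of Calcr was -6.96 on plate 39, where no positive cell had a read and the value depends on the pseudocount, and -2.37 to -1.02 on the other 4 plates. Nell1 was at 0.38 on plate 12 and -3.34 to -2.39 elsewhere, Gad1 at -5.89 on plate 25 and -0.56 to 0.55 elsewhere, and Cpne4 at 2.185 on plate 39 and -1.12 to -0.29 elsewhere. In All DR Sema5a was at -1.48 on plate 50 and -3.405 to -2.998 elsewhere, and Gad1 at 0.61 on plate 60 and -4.36 to -3.10 elsewhere. Plates 25, 39 and 60 rest on 3, 6 and 4 positive cells.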

How the results depend on the processing

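Of 256 comparisons of a count or share with its value under an alternative, 231 stayed within 1.5 times of the count or inside the interval or plate spread of the share. The counts of genes called depend on the thresholds. Counts are given as Principal DR higher and lower, All DR higher and lower, and both higher and lower, where the values as reported were 76, 67, 92, 83, 23 and 21. With a pseudocount of 10 CPM they were 10, 23, 51, 37, 8 and 9, with no minimum mean 211, 234, 238, 268, 54 and 59, and with a minimum mean of 50 CPM 7, 14, 31, 14, 4 and 5. With pooled reads 46 were higher in Principal DR, and without the highest cell of each set 24. With the mean of log2(CPM+1), 184 were higher in All DR and 42 in both. With 1 plate left out, 62 to 161 genes were higher in Principal DR, the most without plate 13 (161) and plate 12 (125), the plates with the most positive cells. The other counts stayed within 1.5 times: 63 to 97 lower in Principal DR, 86 to 105 and 76 to 110 in All DR, 22 to 26 and 20 to 28 in both. With 5 neighbours the share of positive neighbours in All DR was 26.7%, and with a plate left out 11.3 to 17.8%. Shares of cells with Crh were 11.0 to 13.2% and 4.51 to 4.57% under the other rules for Crh and thinning, and with a plate left out 12.2 to 15.4% and 4.08 to 6.00%. Fgf9, Enpp2, Nos1, Synm and Galnt18 of the genes higher in both, and Sema5a, Calcr, Rasgrp1, Arhgap36, Dlk1, Sln, Asb4 and Phactr2 of those lower in both, were called in both under every alternative run except the minimum of 50 CPM. Of 1786 values of named genes 1666 kept their call, 95 lost it, 24 gained it and 1 reversed, Foxn2 in Principal DR, at -0.22 without plate 40 and 2.72 without plate 13. The cause was not tested. No paired analysis was possible because no result comes from a test and the labels pair no samples. Depth limits what is seen of low genes: 1 read is about 1 CPM, and 12 of the 80 positive cells have under 5 reads of Crh.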
